A study of Mus musculus with 15 samples.

Results

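The proteins that store, silence and later translate the maternal mRNAs of the mouse oocyte were followed from the zygote to the 2-cell embryo through 10 genes, Zar1, Zar1l, Ybx2, Cpeb1, Dazl, Patl2, Pabpc1l, Eif4e1b, Lsm14b and Ddx6. They were chosen by name for their known roles, and all 10 were found among the 14392 genes of the deposited expression table. The RNA-seq libraries came from zygotes and 2-cell embryos of C57BL/6 mice, with 2 libraries of each genotype and stage and 10 pooled embryos in a library. WT embryos came from Usp16+/+ females, and the embryos called cKO came from Usp16 fl/fl;Gdf9-Cre females, in which Cre, driven by the oocyte promoter of Gdf9, deletes the H2A deubiquitinase gene Usp16 from the primordial follicle stage onward. All females were juvenile, were superovulated with gonadotrophins and were mated with WT males, so that a cKO embryo lacked the maternal and carried an intact paternal Usp16 allele.

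A fully grown oocyte is transcriptionally silent and lives on mRNAs made earlier, which it keeps in ribonucleoprotein particles until meiosis and fertilization call for them. YBX2 and the ZAR proteins coat and stabilize such mRNAs, while DDX6, LSM14B and PATL2 belong to complexes that hold mRNAs silent or lead to their decay. CPEB1 and DAZL bind elements in 3' untranslated regions and control poly(A) tails and translation, PABPC1L binds the tail in place of the somatic PABPC1, and EIF4E1B binds the cap in the oocyte. In mice, most maternal mRNAs, among them those of many of these factors, are cleared as the embryonic genome is activated at the 2-cell stage.

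Zar1, Zar1l and Dazl are the members whose level was highest in zygotes together with Eif4e1b, and the pair Zar1 and Zar1l parted in cKO 2-cell embryos, so the promoter sequences of these 3 genes are shown. The sequences are RefSeq's on GRCm38.p6 and run over 300 bases, from 250 before to 50 after the start of the gene. On mm9, GENCODE M1 places Zar1 at 72968353 to 72972323 and Zar1l at 151309630 to 151320739 of chromosome 5, Dazl at 50418719 to 50432924 of chromosome 17, Ybx2 at 69749298 to 69755107 of chromosome 11 and Eif4e1b at 54885359 to 54889820 of chromosome 13. Promoters were matched for 8 of the members. Eif4e1b and Ddx6 have no entry in the table used. Capitals mark the E-box, spelled CANNTG, which is the kind of element bound by the oocyte factor FIGLA, and the element TAATTG or its reverse complement CAATTA, bound by the oocyte homeodomain factor NOBOX. Both strands were searched for both motifs, and no match of either overlapped a match of the other in these windows.
Zar1, chr5:72581035-72581334, minus strand: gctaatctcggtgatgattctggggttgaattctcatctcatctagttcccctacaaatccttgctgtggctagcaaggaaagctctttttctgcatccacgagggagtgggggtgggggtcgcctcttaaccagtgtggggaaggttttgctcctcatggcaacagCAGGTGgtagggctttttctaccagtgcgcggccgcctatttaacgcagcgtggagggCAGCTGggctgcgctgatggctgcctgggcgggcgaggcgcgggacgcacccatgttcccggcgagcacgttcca
Zar1l, chr5:150518110-150518409, minus strand: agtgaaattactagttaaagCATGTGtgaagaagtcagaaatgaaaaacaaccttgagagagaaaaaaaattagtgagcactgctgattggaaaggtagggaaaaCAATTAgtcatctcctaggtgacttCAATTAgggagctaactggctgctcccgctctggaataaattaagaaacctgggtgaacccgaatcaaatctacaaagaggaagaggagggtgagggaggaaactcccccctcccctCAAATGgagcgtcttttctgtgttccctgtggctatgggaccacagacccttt
Dazl, chr17:50293571-50293870, minus strand: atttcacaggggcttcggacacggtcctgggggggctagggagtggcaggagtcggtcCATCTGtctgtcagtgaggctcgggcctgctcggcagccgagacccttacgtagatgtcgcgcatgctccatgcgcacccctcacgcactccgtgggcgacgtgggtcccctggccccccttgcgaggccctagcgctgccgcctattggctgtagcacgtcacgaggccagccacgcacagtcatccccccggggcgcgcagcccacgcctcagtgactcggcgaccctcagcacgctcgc
The Zar1 window held 2 E-boxes and 0 TAATTG elements, the Zar1l window 2 of each, and the Dazl window 1 E-box and 0 TAATTG elements. Of all 32851 promoter windows of this length, 72.3% held an E-box and 8% a TAATTG element. The windows also differed in base composition, with 17 CpG in Zar1, 3 in Zar1l and 28 in Dazl. These matches describe letters, not bound sites.

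Expression was given as FPKM, the share of a library's fragments that map to a gene, divided by the length of its exons. Values under 1 had been raised to 1, and without read counts the sequencing depth cannot be given. The cKO 2-cell embryos stood apart, since their replicates differed by more than 3-fold for 1912 genes, compared with 20 to 199 genes in the other groups, and the FPKM of cKO 2-cell replicate 2 summed to 770989 while no other library exceeded 593317. Usp16 was at 184 and 187 FPKM in WT zygotes and at 16.8 and 22.0 in cKO zygotes, a log2 fold change of -3.21 that did not pass in limma (adjusted p = 0.191). In 2-cell embryos it was at 168 and 183 in WT and at 168 and 84.8 in cKO. The loss of the maternal transcript was thus seen in the zygote libraries, whereas at the 2-cell stage the first cKO library was level with WT (log2 fold change -0.55, adjusted p = 0.263 in limma). Of the 6 markers of the 2-cell stage that the table holds, 5 were higher in WT 2-cell embryos than in WT zygotes, among them Zfp352. In cKO 2-cell embryos 2 of the 6 were higher than in cKO zygotes, and 4 were lower than in WT 2-cell embryos (median log2 fold change -1.80). Of 11 oocyte and maternal markers, 6 were lower in cKO than in WT 2-cell embryos. Over all genes, limma called 34.2% higher between the WT stages and 24.6% higher between the cKO stages. Between cKO and WT 2-cell embryos it called 24.6% lower. The part of these markers in the results for the members was not tested. Of 13 cumulus and granulosa markers, 5 were in the table, and their summed FPKM was between 29.6 and 33.8 in zygotes, 49.7 and 63.7 in WT 2-cell and 45.1 and 67.0 in cKO 2-cell embryos. These sums hold markers that moved in opposite ways, as Cyp19a1 was between 22.3 and 26.7 in zygotes and at 1.78 or lower in 2-cell embryos, and Amhr2 was at 1 in every zygote library and at 29.5 and 32.7 in WT 2-cell embryos.

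In WT zygotes, Dazl, which promotes translation of its target mRNAs in maturing oocytes, was the highest member at 413 and 564 FPKM. Zar1, an oocyte protein needed for the first cleavage, followed at 406 and 295. Eif4e1b, the cap-binding protein of the oocyte, was at 238 and 213, and Zar1l, the paralogue of Zar1, at 207 and 130. These 4 genes were above the others in every zygote library. Lsm14b, a component of silencing complexes, was at 78.4 and 74.3. Cpeb1 (35.7 and 43.0), Ybx2 (35.5 and 30.4) and Pabpc1l (44.1 and 21.4) were close to each other, and their order did not exceed the spread between the 2 libraries. Patl2 was at 10.4 and 8.45 and Ddx6 at 1.40 and 2.42, near the floor. Although the DDX6 helicase is a general partner of LSM14 and PATL proteins, its mRNA ranked between the percentiles 14.7 and 51.4 of all genes over the 8 libraries, while Dazl ranked at 98.4 or higher in every zygote library.

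**Figure D1:**
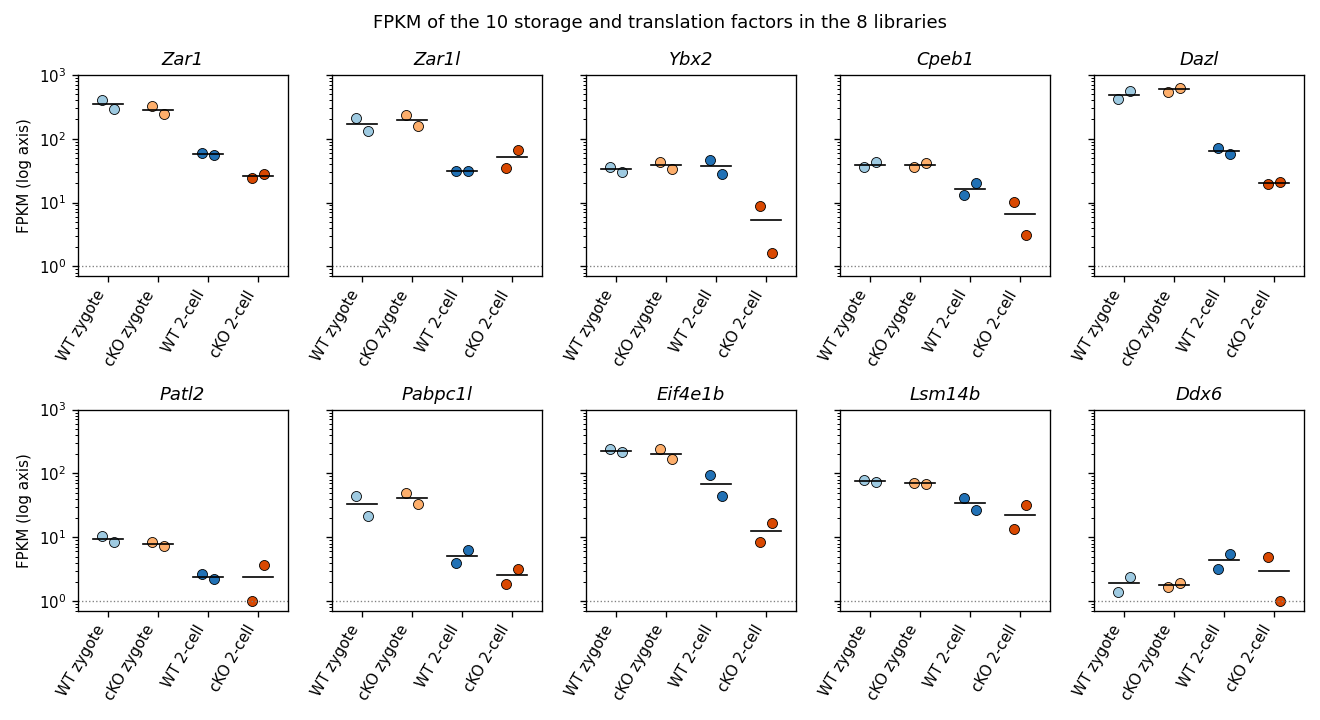
FPKM of the 10 genes in each library (log axis, dots are libraries, bars are the means of 2, the dotted line is the floor of 1). In zygotes the 2 genotypes lie together for each gene, and the 2-cell values lie below them for most genes, with Zar1 at 24.4 and 27.5 and Dazl at 19.2 and 21.1 in cKO 2-cell embryos.

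The first question was what becomes of these mRNAs in normal development. From WT zygotes to WT 2-cell embryos, 6 of the 10 members fell, namely Zar1, Zar1l, Dazl, Patl2, Pabpc1l and Eif4e1b, and 0 rose (also 0 at an unadjusted p under 0.05 in limma). The same 6 passed at an adjusted p under 0.05 in limma and had a mean more than 3-fold lower. Dazl fell to 71.4 and 57.5 FPKM, which is 13.2% of its zygote mean, and Zar1 to 59.3 and 54.7, or 16.3%. Pabpc1l fell to 4.01 and 6.29 (15.8%), Zar1l to 30.7 and 31.3 (18.4%), Patl2 to 2.62 and 2.2 (25.6%) and Eif4e1b to 93.2 and 44.8 (30.6%). In each of the 6 genes both 2-cell libraries were below both zygote libraries. These genes were called by their fall in the same libraries, so the separation adds no further support. Its share over all genes is not given here.

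The log2 fold changes of FPKM + 1 in limma were -2.89 for Dazl (standard error 0.23, adjusted p = 0.000253) and -2.58 for Zar1 (standard error 0.24, adjusted p = 0.000415), which were the steepest of the 10. Over all genes, 15.5% were lower and 34.2% were higher by limma, and 8.78% were lower by the 3-fold rule, or 16.7% of the 7562 genes whose zygote mean was above 3 and could pass that rule. The median log2 fold change was -1.70 over the members and 0.27 over all genes. Patl2 was not called without any 1 of the 4 WT libraries (adjusted p 0.0683 to 0.119). Eif4e1b was not called without WT zygote replicate 1, WT zygote replicate 2 or WT 2-cell replicate 2 (0.0909, 0.0740 and 0.111), and Pabpc1l was not called without WT 2-cell replicate 1 (0.0543). The calls of Zar1, Zar1l and Dazl remained when any 1 of the 8 libraries was left out.

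The other 4 members did not pass the test. Ybx2, the most general of the mRNA-coating proteins here, was at 45.8 and 28.4 FPKM in WT 2-cell embryos, which spans its 2 zygote values, with a log2 fold change of 0.13 (95% confidence interval -1.35 to 1.61). Cpeb1, the protein that binds the cytoplasmic polyadenylation element, was at 13.0 and 19.9, or 41.9% of its zygote mean, and Lsm14b was at 41.9 and 26.5, or 44.8%. Both 2-cell values of these 2 genes lay below both zygote values, with adjusted p = 0.0823 for Cpeb1 and 0.0558 for Lsm14b in limma. When either cKO 2-cell library was left out, their log2 fold changes stayed at -1.23 and -1.17. The calls between the WT stages then rose over all genes, so calls in those fits are not read here. Ddx6 was at 3.23 and 5.55, with both values above those in zygotes and an adjusted p of 0.211.

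In the zygote itself, the question was whether oocytes without Usp16 had entered the embryo with another supply of these mRNAs. None of the 10 members was called between cKO and WT zygotes by limma or by the 3-fold rule (background 0.0208% of all genes by limma and 0.153% by the fold rule, in either direction). The unadjusted p of the members was between 0.267 and 0.960, so 0 of them passed at 0.05 without adjustment, against 84 lower and 324 higher genes of 14392. Dazl was at 546 and 632 FPKM in cKO zygotes, Zar1 at 327 and 245, Eif4e1b at 239 and 167, and Zar1l at 238 and 159. For 9 of the members the values of the genotypes overlapped, the exception being Lsm14b at 72.0 and 69.0 in cKO. The share of all genes that overlapped is not given here. With 2 libraries against 2, groups that do not differ separate with a probability of 0.333. The widest log2 fold changes were 0.39 for Pabpc1l (95% confidence interval -0.67 to 1.46) and -0.29 for Zar1 (-0.88 to 0.30), and the intervals show how wide a difference 2 libraries leave possible. The members together made up between 0.240% and 0.263% of the FPKM sum in cKO zygotes and 0.248% in both WT zygote libraries.

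Between cKO zygotes and cKO 2-cell embryos, 9 of the 10 members fell by both criteria and Ddx6 did not, and 0 rose (also 0 at an unadjusted p under 0.05 in limma). Dazl fell to 3.43% of its zygote mean, and its log2 fold change of -4.80 (standard error 0.23) was the largest of the 10. Pabpc1l and Eif4e1b both fell to 6.17%, Zar1 to 9.07%, Ybx2 to 13.6% and Cpeb1 to 17.3%. Zar1l (25.6%), Patl2 (29.8%) and Lsm14b (32.2%) fell least among the 9. In all 9 genes both 2-cell libraries lay below both zygote libraries. This too follows closely on the calls in the same libraries, and its share over all genes is not given here. The median log2 fold change of the members was -2.74 against 0 over all genes.

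Of all genes, 27.1% were lower and 24.6% higher in this comparison by limma, and 19.2% were lower by the 3-fold rule, which is 36% of the 7679 genes with a zygote mean above 3. The count of 9 became 5 without cKO zygote replicate 1, when Zar1l, Ybx2, Patl2 and Lsm14b had adjusted p values of 0.0516, 0.0563, 0.113 and 0.0770. It became 7 without cKO zygote replicate 2, 8 without either WT 2-cell replicate, and 4 when the 4 cKO libraries were fitted alone.

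**Figure D2:**
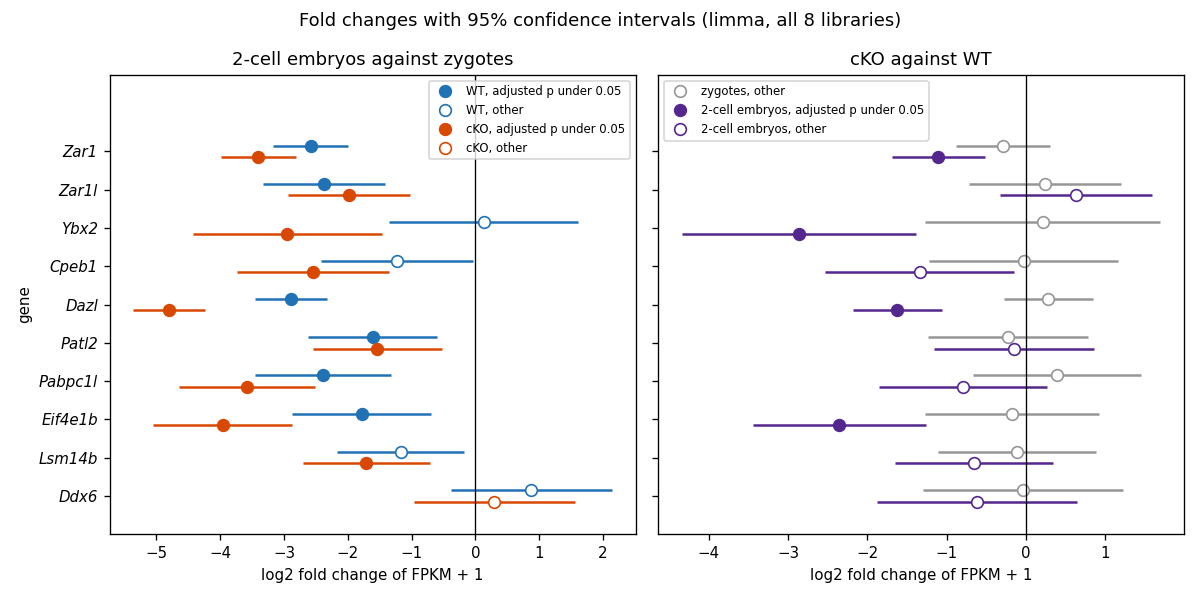
Log2 fold change of FPKM + 1 for each gene (x axis) with its 95% confidence interval from limma, from zygote to 2-cell embryo in each genotype (left) and between the genotypes at each stage (right), with filled dots for an adjusted p under 0.05. On the left the WT dots of 6 genes and the cKO dots of 9 genes are filled, and on the right 4 genes are filled at the 2-cell stage and 0 in zygotes.

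At the 2-cell stage, Zar1, Ybx2, Dazl and Eif4e1b were lower in cKO than in WT embryos, Zar1l had higher values in cKO without passing the test, and the other 5 members were not called. Eif4e1b was at 8.40 and 16.6 FPKM in cKO against 93.2 and 44.8 in WT, a 5.52-fold lower mean. Dazl was at 19.2 and 21.1 against 71.4 and 57.5, a 3.19-fold lower mean with closely matching replicates. Zar1 was at 24.4 and 27.5 against 59.3 and 54.7, a 2.19-fold lower mean, which does not reach the 3-fold rule. In these 3 genes the cKO embryos thus ended below a level to which WT embryos had already come down.

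Ybx2 was the exception among the 4 lower genes, since no fall of its mRNA was called between the WT stages. It was at 8.83 and 1.64 FPKM in cKO 2-cell embryos, against 45.8 and 28.4 in WT 2-cell embryos and 43.0 and 34.0 in cKO zygotes. The 7.09-fold lower mean was the largest difference of the 10, and its replicates, 5.39-fold apart, differed more than those of any other member in any group. Both cKO values were below all 6 values of the other groups.

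Limma gave log2 fold changes of -2.86 for Ybx2 (standard error 0.61, adjusted p = 0.0170), -2.35 for Eif4e1b (0.45, adjusted p = 0.0124), -1.62 for Dazl (0.23, adjusted p = 0.00539) and -1.11 for Zar1 (0.24, adjusted p = 0.0185). Over all genes, 24.6% were lower and 6.16% higher, a background to be read beside the 4 of 10 members. By the 3-fold rule 3 members were lower, against 13.5% of all genes and 19.8% of the 9800 genes with a WT mean above 3. The median log2 fold change was -0.95 over the members and -0.30 over all genes. Without WT 2-cell replicate 1 the count of 4 became 1, since Dazl (adjusted p = 0.0258) was called and Eif4e1b (0.0688), Ybx2 (0.123) and Zar1 (0.0842) were not. Without WT 2-cell replicate 2, Ybx2 and Zar1 were not called. Without either cKO 2-cell replicate that group held 1 library, so the count of members is not read. With each group given its own spread, and when the 4 2-cell libraries were fitted alone, 0 members passed at the adjusted threshold, with 854 and 0 genes lower over all 14392. At an unadjusted p under 0.05, 3 and 4 of these members passed in those fits, against 2960 and 3416 genes lower over all 14392. Zar1 was the one that missed with each group's own spread. The 4 members were picked by their calls on the same libraries, so this is no further support. For any gene, the smallest two-sided p of an exact permutation test on these 4 libraries is 0.333.

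Of the other 5 members, Cpeb1, Patl2 and Ddx6 had cKO replicates more than 3-fold apart. Cpeb1 was at 10.3 and 3.08 FPKM in cKO against 13.0 and 19.9 in WT, with adjusted p = 0.0874 in limma. Pabpc1l was at 1.88 and 3.24 against 4.01 and 6.29 (adjusted p = 0.227). Lsm14b was at 13.6 and 31.7 against 41.9 and 26.5, and Patl2 at 1.00 and 3.73 against 2.62 and 2.2, so that the genotypes overlapped. Over all alternatives the log2 fold change was between -1.23 and -0.07 for Lsm14b and between -0.77 and 0.52 for Patl2. Ddx6 was at 4.89 and 1.00 against 3.23 and 5.55. Some of these 5 members passed when 1 cKO 2-cell library was left out. That group then held 1 library and the calls over all genes rose, so those passes are not read here.

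Zar1l went the other way from its paralogue. It was at 35.1 and 66.8 FPKM in cKO 2-cell embryos, and both values were above the 30.7 and 31.3 of WT. The log2 fold change was 0.63 (95% confidence interval -0.33 to 1.59, adjusted p = 0.274 in limma), and it remained above 0 in all 19 alternative fits, from 0.17 to 1.09, with 0 of them passing. In both cKO 2-cell libraries Zar1l was the highest of the 10 members. The coding sequences of Zar1 and Zar1l were 62.7% identical over the aligned bases. Whether reads were shared within the pair was not tested.

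**Figure D3:**
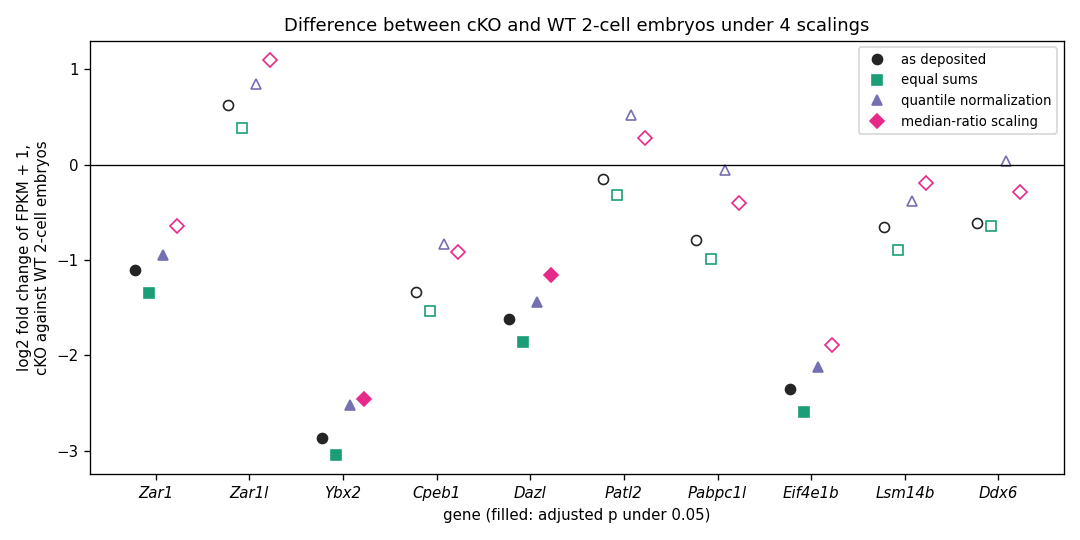
Log2 fold change of FPKM + 1 between cKO and WT 2-cell embryos for each gene under 4 scalings of the libraries (filled symbols: adjusted p under 0.05 in limma). Zar1, Ybx2, Cpeb1, Dazl, Pabpc1l, Eif4e1b and Lsm14b lie below 0 and Zar1l above 0 under all 4. Patl2 and Ddx6 change sign, and under median-ratio scaling Ybx2 and Dazl are filled.

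Since FPKM is a share of each library, these differences depend on what the libraries are scaled to. Scaling by the median ratio moved the median log2 fold change of all genes at the 2-cell stage from -0.30 to 0. It left Ybx2 at -2.46 (adjusted p = 0.0432) and Dazl at -1.15 (0.0383) called, and Eif4e1b at -1.89 (0.0634) and Zar1 at -0.64 (0.125) not called. The split of calls over all genes went from 3538 lower and 887 higher to 1747 lower and 1437 higher. Under quantile normalization and under scaling to equal sums, all 4 members were called. Patl2 had a log2 fold change of -0.15 as deposited and of up to 0.52 under other settings, so no direction can be given for it. In these pooled embryos, fewer transcripts of a gene in each embryo and fewer embryos holding them cannot be told apart. The lengths of the poly(A) tails were not measured, and whether they altered how well these mRNAs were captured was not tested.

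The genotype effect at the 2-cell stage was then set against that in zygotes in the same model. Among the 10 members, only Dazl was called as differing in its genotype effect between the stages. This count of 1 of 10 is near the 11.8% of all genes that passed in either direction. The log2 difference between the effects on Dazl, 2-cell embryos minus zygotes, was -1.90 (standard error 0.33, adjusted p = 0.0230 in limma). The estimate was larger for Ybx2 (-3.08, adjusted p = 0.0692) and Eif4e1b (-2.18, adjusted p = 0.0767), whose spread was wider. The call of Dazl was lost without any 1 of the 4 zygote libraries (adjusted p 0.0702 to 0.105), under median-ratio scaling (0.0945), under quantile normalization (0.0553) and with each group given its own spread (0.103). Without a zygote library the log2 difference of Dazl was between -2.13 and -1.68, and 1 or 2 genes of all 14392 passed in place of 1474 lower and 227 higher, so the loss was not particular to Dazl. Without a cKO 2-cell library that group holds 1 library, and the calls over all genes rose as well. The counts of members in those fits are therefore not read here.

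Many of these oocyte factors have a relative that serves in somatic cells, and the level of a member against its relative within a library does not depend on the scaling of that library. The most marked exchange was that of the poly(A)-binding proteins. Pabpc1l was 21.4 to 28.3 times as high as Pabpc1 in WT zygotes and 16.0 to 25.4 times in cKO zygotes. In 2-cell embryos, Pabpc1 was 10.4 to 22.7 times as high as Pabpc1l in WT and 39.2 to 112 times in cKO. The mean log2 ratio differed by -2.11 between cKO and WT 2-cell embryos, without overlap of the libraries, while Pabpc1l itself was not called between them (adjusted p = 0.227). Against Pabpc4, another somatic poly(A)-binding protein, the genotypes overlapped. Pabpc4 was 17.5 to 27.9 times as high as Pabpc1l in WT and 13.9 to 44.4 times in cKO 2-cell embryos, with a mean log2 ratio that differed by -0.17, compared with 0.877 to 1.41 times in WT zygotes. Pabpc1 was at 1.56 and 1.00 FPKM in WT zygotes, so the zygote ratio rests on values near the floor, and at 90.9 and 65.5 in WT and 210 and 127 in cKO 2-cell embryos.

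The cap-binding pair showed a similar order. Eif4e was 1.19 to 1.31 times as high as Eif4e1b in WT zygotes, 1.34 to 1.72 times in cKO zygotes, 4.05 to 8.87 times in WT 2-cell embryos and 64.4 to 140 times in cKO 2-cell embryos. The difference came from both genes, as Eif4e was at 1174 and 1069 FPKM in cKO against 378 and 398 in WT 2-cell embryos (log2 fold change 1.53, standard error 0.21, adjusted p = 0.00463 in limma). Eif4e, the cap-binding subunit that recruits mRNAs to ribosomes in most cells, had the same direction under all scalings tried. It was not called with each group given its own spread (adjusted p = 0.0863) or with the 2-cell libraries fitted alone (0.0757).

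Ybx1, the somatic Y-box protein, was 1.88 to 2.42 times as high as Ybx2 in WT zygotes, 3.26 to 5.95 times in WT 2-cell embryos and 51.4 to 159 times in cKO 2-cell embryos. Its own values were 149 and 169 FPKM in WT and 454 and 260 in cKO 2-cell embryos (adjusted p = 0.0615). Ybx3, listed in the table under its older symbol Csda, moved with Ybx2 instead, from 70.9 and 42.3 in WT to 14.5 and 9.60 in cKO 2-cell embryos (log2 fold change -2.12, adjusted p = 0.00852 in limma). The mean log2 ratio of Ybx2 to Ybx3 therefore differed by -1.03 between cKO and WT 2-cell embryos, against -4.36 for the ratio of Ybx2 to Ybx1.

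The remaining pairs did not share this order. Lsm14a was 2.64 to 3.65 times as high as Lsm14b in WT zygotes and 4.18 to 7.42 times in cKO 2-cell embryos, within which the WT 2-cell range of 4.94 to 6.94 lay. Cpeb1 was 4.26 to 4.86 times as high as Cpeb4 in WT zygotes and 1.82 to 2.35 times in WT 2-cell embryos, with cKO values of 1.09 and 2.79 around them. The ratio of Patl2 to Patl1 was 0.116 in the first and 2.82 in the second cKO 2-cell library, so nothing can be read from it. Zar1 was 1.96 to 2.27 times as high as Zar1l in WT zygotes and 1.75 to 1.93 times in WT 2-cell embryos, but 1.37 to 1.54 times in cKO zygotes and 0.412 to 0.696 times in cKO 2-cell embryos. For this pair, as for Eif4e1b and Eif4e, the cKO libraries lay below the WT libraries at both stages. In zygotes the ratio of Pabpc1l to Pabpc4 separated the other way. With 2 libraries against 2, groups that do not differ separate with a probability of 0.333. The coding sequences of the pairs were between 62.7% and 71.4% identical.

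**Figure D4:**
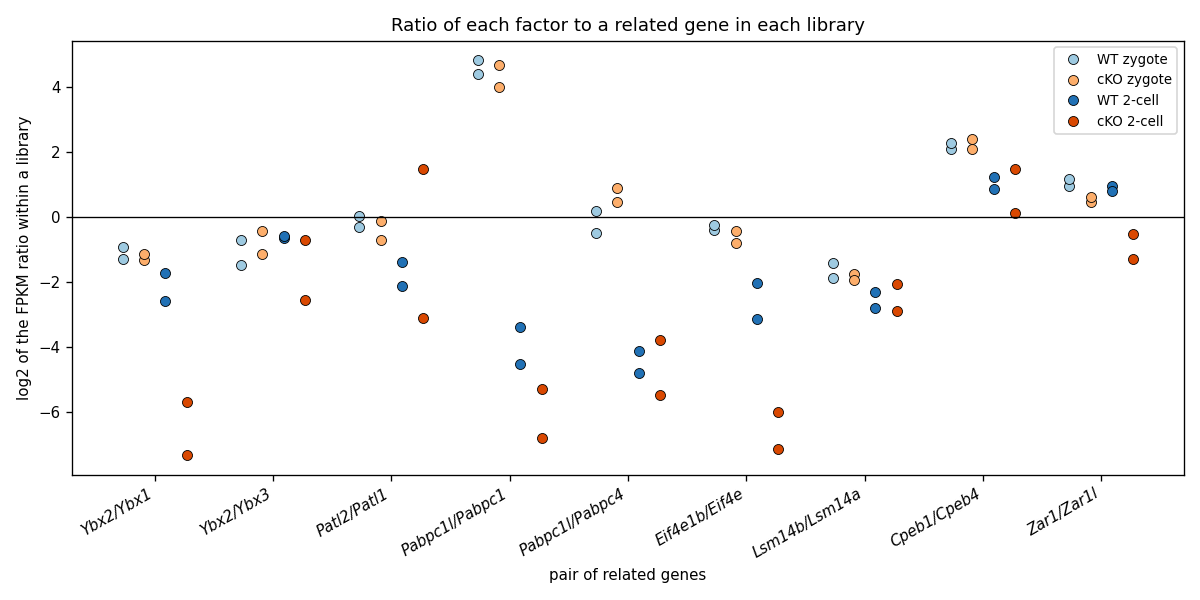
Log2 of the FPKM ratio of each member to a related gene within each library (dots are libraries, colours are groups, 0 is an equal level). Pabpc1l/Pabpc1 crosses 0 between zygotes and 2-cell embryos, and Ybx2/Ybx1, Pabpc1l/Pabpc1, Eif4e1b/Eif4e and Zar1/Zar1l are lowest in the 2 cKO 2-cell libraries.

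The wider machinery was described with 4 gene lists. Of 34 partners in storage and repression complexes, 6 fell and 12 rose from WT zygotes to WT 2-cell embryos, shares near those over all genes (15.5% lower and 34.2% higher). In the list, Syncrip, an RNA-binding protein of mRNA transport and stability, was listed at the floor of 1 in all zygote libraries and at 38.0 and 37.2 FPKM in WT 2-cell embryos, and Khdrbs1 went from 5.29 and 6.92 to 54.0 and 78.2. Between cKO and WT 2-cell embryos 8 differed downward and 3 upward, shares near the 24.6% and 6.16% over all genes, with a median log2 fold change of -0.49 against -0.30 over all genes. The largest difference was in Dcp2, the decapping enzyme, which was at 5.37 and 3.06 FPKM in cKO against 18.5 and 29.2 in WT (adjusted p = 0.00474).

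Of 27 genes of cytoplasmic polyadenylation and poly(A) binding, 7 fell and 7 rose in WT, beside 15.5% and 34.2% of all genes. The cKO 2-cell embryos had 4 of the 27 lower and 2 higher than WT, beside 24.6% and 6.16% of all genes. Pabpn1l, an oocyte poly(A)-binding protein of maternal mRNA clearance, fell in WT from 51.0 and 63.8 FPKM to 4.67 and 2.53. Paip1, a partner of the poly(A)-binding protein in translation, was at 50.0 and 47.2 in cKO against 205 and 354 in WT 2-cell embryos (adjusted p = 0.00933). Papd7, a noncanonical poly(A) polymerase, was at 43.5 and 34.1 against 136 and 144 (adjusted p = 0.00254). In this comparison the list had a median log2 fold change of -0.46, against -0.30 over all genes.

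Of 20 genes of cap binding and its regulation, 1 fell and 5 rose in WT, beside 15.5% and 34.2% of all genes. In cKO 2-cell embryos 1 of the 20 was lower and 1 higher than in WT, beside 24.6% and 6.16% of all genes, with a median log2 fold change of 0.03 against -0.30 over all genes. The lower one was Eif4e3, another cap-binding relative, at 12.4 and 9.43 FPKM in cKO against 48.4 and 63.0 in WT (adjusted p = 0.00203), and the higher one was Eif4e. In WT, Eif4ebp1, the inhibitor that sequesters EIF4E, rose from 3.83 and 2.17 to 76.1 and 77.2, and Mknk2, a kinase of EIF4E, from 2.57 and 1.92 to 24.9 and 16.0.

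Of 25 genes of maternal mRNA clearance, 3 fell and 9 rose in WT, beside 15.5% and 34.2% of all genes. The cKO 2-cell embryos had 8 of the 25 lower and 2 higher than WT, beside 24.6% and 6.16% of all genes, and the median log2 fold change of -0.23 lay above the -0.30 of all genes. Btg4, the adaptor that brings the CCR4-NOT deadenylase to maternal mRNAs, was at 208 and 483 FPKM in cKO against 2058 and 1457 in WT 2-cell embryos (adjusted p = 0.0105). Cnot6l, a catalytic subunit of that deadenylase, was at 8.56 and 9.08 against 44.8 and 51.2 (adjusted p = 0.00208). Tob1 and Zfp36, both of which recruit the deadenylase, rose in WT from 1.04 and 1.46 to 48.0 and 69.9 and from 1.00 and 1.21 to 17.2 and 16.2. In each of the 4 lists, 0 genes were called by limma between the genotypes in zygotes.

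Among 7871 other genes with a mean of at least 5 FPKM, those whose log2 values followed Zar1 most closely over the 8 libraries were Nobox (Pearson r = 0.999), Oas1e (0.998) and Fbxw18 (0.998), a description across libraries that share 4 groups. Nobox, an oocyte transcription factor, was at 124 and 91.1 FPKM in WT zygotes, 16.3 and 14.8 in WT and 5.81 and 6.88 in cKO 2-cell embryos. The genes most like Ddx6 were Cwc25 (0.966), Prpf39 (0.961) and Nckap1 (0.960), which, like Ddx6, were low in cKO 2-cell replicate 2 and not in replicate 1. Nckap1 was at 62.3 in the first and 12.4 in the second of these libraries.

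The 3' ends of the mRNAs were searched because CPEB1 binds there. Of 12024 mouse transcripts with at least 100 bases of 3' untranslated region in GENCODE M1 (mm9), 19.1% held a cytoplasmic polyadenylation element, spelled TTTTAT or TTTTAAT, in their last 100 bases. Among the 9 members with such a region, Ybx2 was the only one to hold it. Its last 100 bases held 0 copies of the polyadenylation signal AATAAA. Of the 12024 transcripts, 65.3% held that signal and 12.6% held both. The 30 bases around the Ybx2 element are shown, with the element in capitals. Ybx2 was chosen as the member that differed most between the genotypes while no change was called between the WT stages.
Ybx2, chr11:69755034-69755063, plus strand, mm9: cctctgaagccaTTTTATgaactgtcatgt
Farther from the end, the element was found 4 times in the 3' untranslated region of Cpeb1, 6 times in that of Dazl, 2 times in that of Lsm14b and 7 times in that of Ddx6. A match does not show binding.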

How the data were processed

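RNA-seq was measured in 8 libraries, 2 for each genotype and stage, made with Smart-seq2 from 10 embryos each. The 7 H2AK119ub1 ChIP-seq samples were not used here. Reads were trimmed by the authors and aligned to mm9 with TopHat2 2.1.1. Genes were quantified with Cufflinks 2.2.1, and the authors deposited FPKM values, floored at 1, for genes above 1 in at least 1 library. The gene annotation they used is not given in the sources used here. Depth is unknown, so no counting error could be given, and precision rests on 2 libraries per group. Nothing states that these came from separate females, so p-values measure the spread between these libraries.

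Members were matched by symbol, and samples were grouped by their labels. From the deposited FPKM, log2(FPKM + 1) was tested over all 14392 genes with limma 3.58.1 (R 4.3.3), with 4 groups sharing 1 model of 4 residual degrees of freedom and a trended prior. Adjusted p values (Benjamini-Hochberg) under 0.05 were called. The pseudocount of 1 understates the fold changes of low genes. Beside it, group means were compared by the study's 3-fold rule. The members and gene lists were chosen with earlier results of these data known. Genes named beside the members were their relatives, Usp16, per list the 2 with the largest log2 fold change between the genotypes in 2-cell embryos and the 2 between WT stages, and the 3 most like Zar1 and Ddx6. Alternatives covered the pseudocount, a filter on mean FPKM of 5, scaling, the model, the replicate number as a block and leaving out each library, and the crossed pairing and the 3' end search were added after seeing the data. The calculations were tested on simulated data drawn with the same spread for all genes and groups. The wider spread of the cKO 2-cell replicates was not simulated. Dcp1b, Cnot11 and Zfp36l3 were not matched in the table. A planned comparison of protein sequences was replaced by aligned coding bases of GENCODE M1 transcripts (biopython 1.88).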

Additional observations from a re-analysis of the deposited data

Results flagged for a closer look

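The genotype effect on Dazl was called as differing between the stages by a test of the difference itself. The log2 difference was -1.90 (2-cell embryos minus zygotes, adjusted p = 0.0230 in limma). Dazl was 1 of 10 members to be called, near the 11.8% of all genes called in either direction. The Dazl means were 488 FPKM in WT and 589 in cKO zygotes, and 64.4 in WT and 20.2 in cKO 2-cell embryos. The log2 difference was below 0 in all 18 alternative fits, from -2.13 to -1.41, and passed in 11 of them. Beside 24.6% of all genes, 6 of the 11 oocyte and maternal markers were lower in cKO than in WT 2-cell embryos. Their summed FPKM, between 5105 and 6251 in WT and at 1200 and 2712 in cKO, was in large part that of Oosp1 (4936 and 3711 in WT, 544 and 1876 in cKO), while Gdf9 was at 195 and 304 in WT and at 266 and 367 in cKO and Zp3 at 115 and 70.9 and at 116 and 149. Their part in the result was not tested.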

How the results depend on the processing

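No call of a member turned its direction under any alternative. Of the results for single members over all comparisons and alternatives, 832 kept their side of the threshold, 46 lost a call and 27 gained one. The 832 include results with no call to lose, such as all those between the genotypes in zygotes. The count of members lower from cKO zygotes to 2-cell embryos was 9, 4 with the libraries compared fitted alone, and 5 to 9 without 1 library. The count lower in cKO than WT 2-cell embryos was 4, but 2 with median-ratio scaling, 0 with a variance per group and 0 with those libraries alone. It moved both down and up when 1 library was left out. By fold it was 3, but 6 at a 2-fold threshold, 1 when every library had to differ, and 2 to 5 without 1 library. The count higher by fold in WT 2-cell embryos than in WT zygotes was 0, but 1 (Ddx6) at a 2-fold threshold and 0 to 1 without 1 library. The count whose genotype effect was called as differing between the stages was 1, but 3 with a filter on mean FPKM of 5, 0 with median-ratio scaling, 2 with equal sums, 0 with quantile normalization, 0 with a variance per group and 2 with the crossed pairing. That count also changed when 1 library was left out, as did the calls over the whole table. The cause of these changes was not tested. Over the whole table, the calls in cKO 2-cell embryos numbered 3538 downward and 887 upward, against 854 and 120 with a variance per group, 1747 and 1437 with median-ratio scaling, 1464 and 1370 with quantile normalization, 4065 and 552 with equal sums, and 0 and 0 with those libraries alone (3416 and 819 at an unadjusted p under 0.05 in limma).

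The replicate numbers are shared by the groups, but nothing describes a pairing. Deviations of same-numbered libraries correlated at 0.497 between WT and cKO zygotes and at -0.239 between WT and cKO 2-cell embryos. With the replicate number as a block, 4 members were lower in cKO 2-cell embryos and 1 had a differing effect, as without it, and 3348 genes of the whole table passed downward and 780 upward. The interaction gave 1017 lower and 117 higher genes with the block, against 1474 and 227 without it. With the crossed pairing, the counts at the 2-cell stage were 5 members downward and, over the table, 3540 genes downward and 932 upward.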
